A study of Sus scrofa with 12 samples.

Results

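The genes described here code for 9 glycoproteins of the extracellular matrix, namely the tenascins N and C (TNN, TNC), periostin (POSTN), fibronectin (FN1), SPARC, the thrombospondins 1 and 2 (THBS1, THBS2), fibrillin 1 (FBN1) and elastin (ELN). They were chosen by gene symbol from the 20674 genes of the deposited table, and all 9 were among the 15351 genes that passed the filter on low counts. RNA was measured by sequencing in the endometrium, the inner lining of the uterus, of Landrace × Yorkshire sows of like parity. There were 3 libraries in each of 4 dietary groups. L − N was a low-fiber diet (3.73% crude fiber) and L + N the same diet with 0.05% N-carbamylglutamate (NCG). H − N was a high-fiber diet (7.46% crude fiber) and H + N the same with 0.05% NCG. The high-fiber feed held soybean bran and beet pulp and less corn. NCG is a stable analog of N-acetylglutamate, the activator of the urea cycle, and is fed to raise the synthesis of arginine. Each diet was fed for 114 days, from breeding to the end of gestation, and the sows were then euthanized for sampling. L − N served the study as the basal control. The labels do not say which sow each library came from, so the p-values measure the spread between these libraries.

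The extracellular matrix of the endometrium is made mostly by stromal fibroblasts, with contributions from vessels, smooth muscle and immune cells. Fibronectin and fibrillin are structural glycoproteins. Fibronectin forms fibrils that cells grip through integrins, and fibrillin builds the microfibrils on which elastin is laid down to give tissue its recoil. Tenascins, periostin, SPARC and thrombospondins are matricellular proteins, which tune adhesion, growth factor activity and collagen assembly more than they bear load. Several of them are known for high levels in tissue that is remodeled, and the uterus is remodeled through gestation and again after birth.

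The libraries held 14369781 to 19309724 counts in genes, of which the 9 genes made up 0.454% to 0.895%. Between libraries of one group the spread was far above counting error, with a biological coefficient of variation of 0.269 over all genes, so that the number of libraries and not the depth limited the precision. Replicates 2 and 3 of L − N stood apart on the first principal component of all genes tested (−67.2 and −65.5), with L − N replicate 1 at −22.6 and the other libraries between 1.06 and 28.2. L − N replicate 1 held the highest sum of 9 smooth muscle and pericyte markers, 6640.1 CPM (counts scaled by library size), against 1297 to 2928 in the other 11 libraries. The stromal markers summed to 29868 to 66844 CPM and those of the epithelium to 1033 to 2347 CPM, as the tissue label would have it. Of markers of the fetal trophoblast, PAG6 and CYP19A1 had 0 counts in every library (a count of 0 allows up to 3) and HAND1 at most 4. The 5 genes of the trophoblast list with enough counts to be tested summed to 29.7 to 62.6 CPM, most of it PAG1 (347 to 957 counts). The list was matched by symbol alone, and PAG1 was not checked to be a trophoblast gene. This sum therefore does not show whether fetal tissue was present. TFAP2A, TFAP2C, GATA3 and ELF5 lay between 7 and 164 counts.

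Per length of gene, SPARC was the most abundant of the 9 genes and TNC the least. The mean of the 12 libraries was 1351 FPKM, which are counts scaled by gene length and library total, for SPARC, 219.7 for THBS1, 180.8 for FN1, 52.4 for FBN1, 23.9 for ELN, 11.08 for THBS2, 9.49 for POSTN, 8.38 for TNN and 5.06 for TNC. SPARC lay above THBS1, FN1 above FBN1 and FBN1 above ELN in 12 of 12 libraries. The other neighbours were not separated in every library, since THBS1 lay above FN1, ELN above THBS2, THBS2 above POSTN and TNN above TNC in 9 of 12 libraries, and POSTN above TNN in 7 of 12. The level per length of SPARC was higher than that of 99.8% of all genes tested, and that of TNC higher than that of 41.4%.

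**Figure D1:**
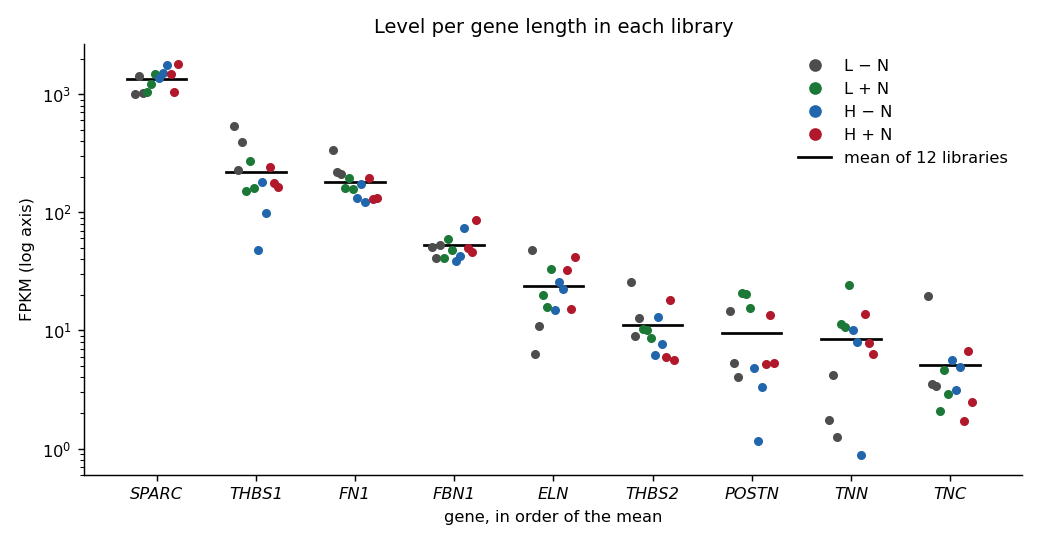
Level of each gene per gene length in FPKM (log axis), with 1 point for each of the 12 libraries in the color of its group and a bar at the mean of the 12. The points of SPARC lie above those of every other gene, between 1003 and 1815 FPKM. Those of THBS1, POSTN, TNN and TNC span more than 1 decade each.

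The abundant members varied least between libraries fed the same diet. The within-group standard deviation of log2 CPM was 0.28 for FN1, 0.33 for SPARC and 0.43 for FBN1, and the median over all genes tested was 0.28. It was 0.64 for THBS1, which ranked 2 in level per length, and also for THBS2. It was 0.80 for POSTN, 0.91 for ELN, 0.93 for TNC and 1.12 for TNN. For TNN, 97.4% of the genes tested had a smaller value. A fold change of a given size was thus easier to detect in FN1 than in the tenascins.

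With edgeR on all 12 libraries, THBS1 and FN1 were the members that passed the test in a comparison between diets, and both fell in H − N against L − N. L − N had the highest mean of THBS1 and FN1 of the 4 groups and the lowest mean of TNN, and POSTN had its highest mean in L + N and its lowest in H − N. SPARC and FBN1, which were among the 4 most abundant members, had no unadjusted p under 0.05 in any comparison. In bulk tissue, fewer cells of a type and less RNA per cell cannot be told apart in any of these values. The levels of each member in each library are shown by group in the plot of CPM.

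**Figure D2:**
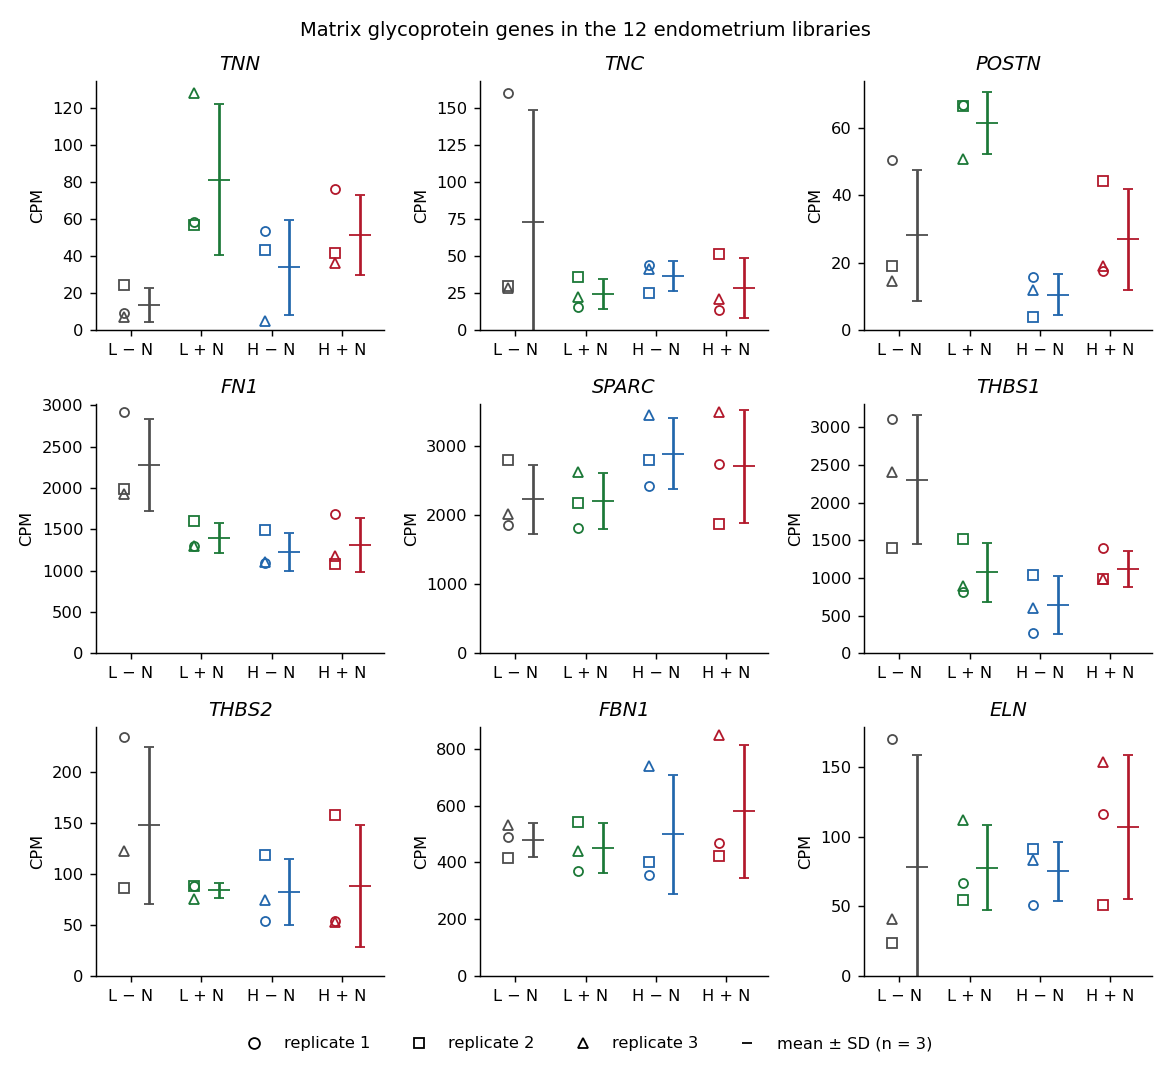
CPM of each gene by dietary group (linear axis from 0), with the replicates as circles, squares and triangles and the mean ± SD of 3 libraries beside them. The error bars of TNC and ELN in L − N are cut at 0, because 1 library (159.9 and 170.1 CPM) stands above the other L − N libraries there, and THBS1 and FN1 of L − N lie above all libraries of H − N.

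A member was called differentially expressed at an adjusted p under 0.05 (edgeR's quasi-likelihood test, Benjamini-Hochberg over all genes tested) and an absolute log2 fold change above 1. In H − N against L − N, 1 of 9 members was called (THBS1), where 2.91% of all genes were called. In this comparison 2 members had an adjusted p under 0.05 whatever the fold (THBS1 and FN1; 5.27% of all genes), 3 had an unadjusted p under 0.05 (24.4% of all genes), and for 2 the libraries of the groups did not overlap (25.4% of all genes). The last 2 shares are near the background, at 3 and 2 of 9 members.

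No other comparison gave a called member with edgeR. In L + N against L − N, 0 of 9 members were called or had an adjusted p under 0.05 (3.99% and 9.60% of all genes), 4 had an unadjusted p under 0.05 (27.8%) and 3 did not overlap (35.3%). DESeq2 called 1 there, TNN, where it called 898 of 15868 genes. In H + N against L − N the counts were 0 and 0 (3.58% and 7.97%), with 3 at an unadjusted p under 0.05 (27.5%), 3 not overlapping (28.0%) and 0 called by DESeq2. H + N against H − N had 0 called members, as it had 0% of all genes by either rule, with 1 at an unadjusted p under 0.05 (8.67%), 1 not overlapping (13.0%) and 0 by DESeq2. H + N against L + N likewise had 0 (0% of all genes), with 0 at an unadjusted p under 0.05 (4.68%), 1 not overlapping (11.0%) and 0 by DESeq2. For fiber over both NCG levels, 0 members were called or had an adjusted p under 0.05 (0.0261% and 0.0521% of all genes). There 3 had an unadjusted p under 0.05 (19.5%) and 0 did not overlap (0.886%). DESeq2 called 1, POSTN, where it called 306 of 16225 genes. For NCG over both fiber levels, 0 members were called or had an adjusted p under 0.05 (1.80% and 7.27%). There 2 had an unadjusted p under 0.05 (23.6%) and 0 did not overlap (3.99%). DESeq2 called 2, TNN and POSTN, where it called 364 of 15868 genes. The interaction of fiber and NCG had 0 called members (0% of all genes by either rule), 2 at an unadjusted p under 0.05 (12.8%) and 0 by DESeq2.

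The median log2 fold change of the 9 members was −0.84 in H − N, −0.09 in L + N and −0.06 in H + N, each against L − N, where the medians of all genes tested were 0.03, −0.02 and 0.02. The number of members with a negative value was 6, 7 and 5 of 9. Without L − N replicate 1 the medians were 0.08, −0.13 and 0.17, with 4, 6 and 4 members negative, so that the low median in H − N rested on that library. These 3 comparisons share the L − N libraries.

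**Figure D3:**
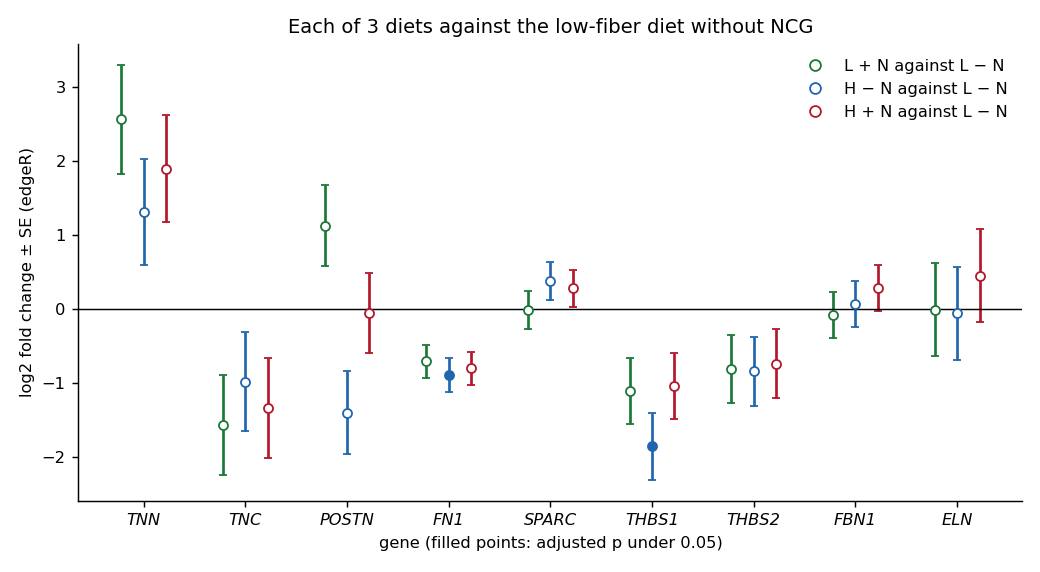
Log2 fold change ± SE (edgeR, 12 libraries) of each gene in L + N, H − N and H + N against L − N, with filled points at an adjusted p under 0.05. Filled points stand at −1.86 for THBS1 and −0.89 for FN1, both in H − N, while the highest points are those of TNN at 2.56, 1.31 and 1.89.

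Tenascin N (TNN, gene ID 102163961, also called tenascin W, chromosome 9 from 117174743 to 117244041 of Sscrofa11.1, plus strand) is a tenascin with few sites of expression in the adult, mostly bone and activated stroma. Its CPM was 9.55, 24.5 and 7.25 in L − N, 58.7, 57.0 and 128.3 in L + N, 53.6, 43.3 and 5.10 in H − N, and 76.1, 41.7 and 36.1 in H + N. Every library of L + N and of H + N lay above every library of L − N, whereas H − N replicate 3 was the lowest of the 12. TNN was 5.89-fold higher in L + N than in L − N (log2 fold change 2.56, SE 0.74, edgeR adjusted p = 0.0514), which missed the threshold by little. The difference was 3.72-fold in H + N (log2 1.89, SE 0.72, adjusted p = 0.119) and 2.47-fold in H − N (log2 1.31, SE 0.72, adjusted p = 0.288).

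Whether TNN was called depended on the tool and on the libraries in the fit. DESeq2 gave TNN an adjusted p of 0.0128 in L + N against L − N, and edgeR on these 2 groups alone gave 0.0340. Of the 12 edgeR fits that left out 1 library each, 2 gave TNN an adjusted p under 0.05 in L + N against L − N. For H + N against L − N it was 1 of 12. The fit lacking H − N replicate 3 gave 0.0149 for L + N and 0.0408 for H + N. The one lacking L − N replicate 2 gave 0.0497 for L + N (log2 3.27). The rest of the fits for L + N ran from 0.0542 (H − N replicate 1 left out) to 0.176 (L − N replicate 3 left out). Its log2 fold change in L + N lay between 2.09 and 3.27 in all 12.

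Over both fiber levels, TNN was 2.98-fold higher with NCG (log2 1.57, SE 0.50, edgeR adjusted p = 0.0861). The value with NCG was 5.89-fold on the low-fiber diet and 1.503-fold on the high-fiber diet, and the test of this difference gave −1.97 on the log2 scale (SE 0.99, edgeR adjusted p = 0.441). The order of the group means ran from L + N over H + N and H − N down to L − N, and the libraries of all neighbours in this order overlapped.

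The genes with the pattern most like that of TNN over the 12 libraries were SLITRK6, a neuronal transmembrane protein of the SLIT and NTRK like family, FREM2, a basement membrane protein of the epithelium, and ZNF169, a zinc finger protein. Pearson's r of log2 CPM was 0.97 for SLITRK6, 0.95 for FREM2 and 0.93 for ZNF169, and Spearman's rho 0.92, 0.92 and 0.88. With the group means taken out, r was 0.97, 0.90 and 0.90. SLITRK6 held 0.764, 2.95 and 1.07 CPM in L − N, 14.2 to 41.1 in L + N, 0.483 in H − N replicate 3 and 22.4 and 22.7 in the other H − N libraries, and 8.77 to 39.0 in H + N. These values describe 12 libraries that share their groups, and the 3 genes were chosen for their likeness.

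Tenascin C (TNC, gene ID 397460, chromosome 1 from 255533235 to 255630381, minus strand) is the tenascin of wound healing and of smooth muscle and stroma under strain. It held 159.9, 30.0 and 28.7 CPM in L − N, 15.6, 35.9 and 22.4 in L + N, 43.8, 25.3 and 41.4 in H − N, and 13.6, 51.7 and 21.0 in H + N. L − N replicate 1 was far above all others, and the 4 groups overlapped both with and without that library. The log2 fold change against L − N was −1.57 (SE 0.68, edgeR adjusted p = 0.162) in L + N, −0.98 (SE 0.67, adjusted p = 0.391) in H − N and −1.34 (SE 0.67, adjusted p = 0.225) in H + N. Without L − N replicate 1 these values were −0.25, 0.33 and −0.03. The same library held the highest sum of smooth muscle markers, and the part of these cells in the value of TNC was not tested.

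Periostin (POSTN, gene ID 100152401, chromosome 11 from 13225183 to 13258973, minus strand) binds collagen, fibronectin and tenascin C and favors the cross-linking of collagen. It overlaps the gene LOC102166397 in the RefSeq annotation, which has no row in the table, and the strand used in counting is not given in the sources used here. Its CPM was 50.4, 19.2 and 14.7 in L − N, 66.7, 66.5 and 50.8 in L + N, 15.9, 3.95 and 11.9 in H − N, and 17.5, 44.2 and 19.0 in H + N. The 3 libraries of L + N were the highest of the 12, and the 3 of H − N lay below every library with NCG. The group means went from L + N over L − N and H + N down to H − N, with no overlap between the first pair of neighbours and between the last pair.

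Taken over both NCG levels, POSTN was 2.45-fold lower on the high-fiber diet (log2 −1.29, SE 0.39, edgeR adjusted p = 0.123). Taken over both fiber levels it was 2.35-fold higher with NCG (log2 1.23, SE 0.39, edgeR adjusted p = 0.0822). DESeq2 gave adjusted p-values of 0.0161 and 0.0145 for these 2 differences. The values with NCG were close on both diets, 1.13 (SE 0.54) on the low-fiber and 1.34 (SE 0.56) on the high-fiber diet on the log2 scale. The difference between them was 0.22, with a 95% confidence interval of −1.47 to 1.90, so that a difference of more than 2-fold in either direction lies within the error.

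In the single comparisons POSTN was 2.18-fold higher in L + N than in L − N (edgeR adjusted p = 0.204), 2.64-fold lower in H − N than in L − N (log2 −1.40, SE 0.56, adjusted p = 0.152) and 2.27-fold lower in H + N than in L + N (log2 −1.19, SE 0.54, adjusted p = 0.910). H + N differed from L − N by −0.06 (SE 0.54). Without L − N replicate 1, which at 50.4 CPM lay apart from the other L − N libraries, POSTN was called in L + N against L − N (log2 1.86, adjusted p = 0.0469) and for NCG over both fiber levels (log2 1.60, adjusted p = 0.0262). In the same fit its value was −0.67 in H − N against L − N (adjusted p = 0.425), 0.67 in H + N against L − N and −0.93 for fiber.

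Fibronectin (FN1, gene ID 397620, chromosome 15 from 117658158 to 117737145, minus strand) is the main adhesive glycoprotein of the stroma, bound by the integrin of ITGA5 and ITGB1. FN1 fell 1.86-fold in H − N against L − N (log2 −0.89, SE 0.22, edgeR adjusted p = 0.0450), which was past the threshold on the adjusted p but not on the fold. Its CPM was 2918, 1989.5 and 1932 in L − N, 1295, 1604 and 1293 in L + N, 1096, 1490.0 and 1098 in H − N, and 1681, 1076 and 1171 in H + N. All 9 libraries of the other diets lay below the 3 of L − N. The difference was 1.63-fold lower in L + N (log2 −0.71, SE 0.22, adjusted p = 0.0691) and 1.74-fold lower in H + N (log2 −0.80, SE 0.22, adjusted p = 0.0514).

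H + N did not differ in FN1 from H − N or L + N beyond the spread. It differed from H − N by 0.09 and from L + N by −0.09 on the log2 scale (SE 0.22 for both, edgeR adjusted p = 0.936 and 0.969). Averaged over NCG, FN1 was 1.41-fold lower on the high-fiber diet (log2 −0.49, SE 0.16, adjusted p = 0.135). The interaction was 0.80 (SE 0.32, edgeR adjusted p = 0.336). With DESeq2, FN1 passed at an adjusted p of 0.0189 in L + N, 0.0071 in H + N and 0.0402 for fiber. The adjusted p of FN1 in H − N against L − N stayed under 0.05 in 2 of 12 fits that left out 1 library each (H + N replicate 1 and H + N replicate 3). In the other 10 it ran from 0.0515 without H + N replicate 2 to 0.125 without H − N replicate 1, with log2 fold changes between −1.05 and −0.67 in all 12.

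SPARC (gene ID 595124, chromosome 16 from 71368164 to 71380972, plus strand), also known as osteonectin, binds collagen and helps its fibrils to form. It overlaps LOC110257252 in the RefSeq annotation, which has no row in the table. It held 1860.4, 2801 and 2011 CPM in L − N, 1815.5, 2174 and 2616 in L + N, 2422, 2800.4 and 3442 in H − N, and 2743, 1866 and 3493 in H + N. Levels between the lowest and the highest library differed 1.92-fold, the smallest range of the 9 members. The fold changes of SPARC in the 8 comparisons lay between −0.10 and 0.38 on the log2 scale, the highest in H − N against L − N (SE 0.25, edgeR adjusted p = 0.380). Its 95% confidence interval of −0.17 to 0.93 holds a difference of nearly 2-fold.

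Thrombospondin 1 (THBS1, gene ID 492313, chromosome 1 from 131728781 to 131746098, minus strand) inhibits the growth of vessels and activates latent TGF-beta. THBS1 fell 3.62-fold in H − N against L − N (log2 −1.86, SE 0.45, edgeR adjusted p = 0.0421). It was the single member that edgeR called in any comparison with all 12 libraries. Its CPM was 3106, 1401 and 2406 in L − N, 815.0, 1516 and 887.5 in L + N, 266.6, 1036 and 607.4 in H − N, and 1399.7, 980.2 and 988.5 in H + N. The libraries of H − N and of H + N all lay below those of L − N, the closest pair being H + N replicate 1 and L − N replicate 2, while L + N replicate 2 lay above L − N replicate 2.

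THBS1 was also lower than in L − N in L + N (2.15-fold, log2 −1.10, SE 0.44, edgeR adjusted p = 0.135) and in H + N (2.05-fold, log2 −1.04, SE 0.44, adjusted p = 0.157), neither past the threshold. Averaged over NCG, THBS1 was 1.86-fold lower on the high-fiber diet (log2 −0.90, SE 0.31, edgeR adjusted p = 0.160, and 0.0478 with DESeq2). Among the diets with NCG the fiber levels were close, at 0.07 for H + N against L + N (SE 0.44, edgeR adjusted p = 0.989). The averaged value thus rested on H − N against L − N. NCG went with a lower level of THBS1 on the low-fiber diet (−1.10) and a higher one on the high-fiber diet (0.82, SE 0.44, edgeR adjusted p = 0.623). The interaction of fiber and NCG was 1.92 on the log2 scale (SE 0.63, edgeR adjusted p = 0.292), which did not pass over all genes.

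With DESeq2, 2 of 9 members had an adjusted p under 0.05 in H − N against L − N, beside 2079 of 15868 genes. The call of THBS1 there was kept with DESeq2 and in the fits without H − N replicate 2 or H + N replicate 3. It was lost in the other 10 fits that left out 1 library, with adjusted p-values from 0.0525 (without L − N replicate 1, L + N replicate 2 or H + N replicate 2) to 0.135 (with L − N replicate 3 left out), and in a fit of these 2 groups alone (adjusted p = 0.136). In all 12 such fits the log2 fold change lay between −2.40 (without H − N replicate 2) and −1.49 (with H − N replicate 1 left out).

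Beside THBS1, the summed markers of smooth muscle and of macrophages also had their highest group mean in L − N. So did those of endothelium, red cells and platelets (16.9 CPM, against 16.6 in H + N for the platelets). The smooth muscle mean was lowest in L + N (1754 CPM, against 1835 CPM in H − N). The mean of THBS1 was lowest in H − N (636.5 CPM, against 1073 CPM in L + N). The smooth muscle sum was 6640.1, 2456 and 2928 CPM in L − N and 1297, 2092 and 2117 CPM in H − N, where 1 of 9 markers was called, lower (RGS5, log2 −1.52). The macrophage sum was 1358, 3419 and 3537 CPM in L − N and 946.2, 1013 and 699.0 CPM in H − N, where 6 of 8 markers were called, all lower, among them CD163 (log2 −2.02). L − N replicate 1, the highest library of THBS1, had a lower macrophage sum than replicates 1 and 2 of L + N (1629 and 1551 CPM). It also lay below replicates 1 and 2 of H + N there (1366 and 1389 CPM). H − N replicate 1 had the lowest smooth muscle sum and the lowest THBS1 of the 12 libraries. Other libraries did not go together in this way. L + N replicate 2 had a smooth muscle sum of 1872 CPM with THBS1 at 1516 CPM. H − N replicate 3 had a higher sum, 2117 CPM, with THBS1 at 607.4 CPM. The platelet markers, of cells that store thrombospondin 1, summed to 12.6 to 20.6 CPM in all libraries, with 0 of 5 called in H − N against L − N by edgeR, 1 at an unadjusted p under 0.05 and 1 called by DESeq2. The part of these cells in the value of THBS1 was not tested.

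The genes most like THBS1 over the 12 libraries were CALD1, the actin-binding caldesmon of smooth muscle and other contractile cells, SYNC, an intermediate filament protein of muscle, and REEP1, a protein of the endoplasmic reticulum. Pearson's r of log2 CPM was 0.95 for CALD1, 0.93 for SYNC and 0.93 for REEP1, with Spearman's rho of 0.84, 0.78 and 0.84. With the group means taken out, r was 0.88, 0.85 and 0.91. CALD1 ran from 455.2 CPM in H − N replicate 1 to 1225 in L − N replicate 1, which were the lowest and highest libraries of THBS1 too. The libraries share their groups, and the genes were chosen for their likeness.

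Thrombospondin 2 (THBS2, gene ID 100153940, chromosome 1 from 854473 to 882467, plus strand) resembles THBS1 and takes part in collagen fibril assembly. It held 234.2, 86.3 and 123.2 CPM in L − N, 88.3, 88.2 and 76.0 in L + N, 54.7, 118.5 and 74.6 in H − N, and 54.6, 157.9 and 53.5 in H + N. L − N replicate 1 was the highest of the 12 libraries, and all groups overlapped. The log2 fold change against L − N was −0.84 in H − N, −0.81 in L + N and −0.74 in H + N (SE 0.46 for each, edgeR adjusted p = 0.288, 0.277 and 0.325). Without L − N replicate 1 it was −0.34, −0.32 and −0.24. In contrast to THBS1, no comparison gave THBS2 an unadjusted p under 0.05.

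Fibrillin 1 (FBN1, gene ID 414836, chromosome 1 from 123102011 to 123359649, plus strand) forms the microfibrils that also store latent TGF-beta. It held 491.1, 414.1 and 531.4 CPM in L − N, 369.6, 542.8 and 441.5 in L + N, 356.2, 402.9 and 739.9 in H − N, and 470.0, 422.4 and 848.6 in H + N. All groups overlapped, and replicate 3 was the highest library in both H − N and H + N, above all libraries of the low-fiber diets. The fold changes of FBN1 in the 5 comparisons between 2 groups lay between −0.09 in L + N against L − N and 0.36 in H + N against L + N on the log2 scale (SE 0.31 for both, edgeR adjusted p = 0.887 and 0.925).

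Elastin (ELN, gene ID 100628118, chromosome 3 from 11214194 to 11245891, plus strand) makes the elastic core of the fibers, in the uterus mostly around vessels and in the muscle layer. It held 170.1, 23.9 and 40.8 CPM in L − N, 66.7, 54.4 and 112.2 in L + N, 51.1, 91.3 and 83.2 in H − N, and 115.9, 51.3 and 153.5 in H + N. L − N held both the highest of the 12 libraries (replicate 1) and the 2 lowest. With all libraries, the log2 fold change against L − N was −0.06 in H − N, −0.01 in L + N and 0.45 in H + N (SE 0.63 for each, edgeR adjusted p = 0.967, 0.995 and 0.689).

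Without L − N replicate 1 the values of ELN became 1.22, 1.27 and 1.73, and that of H + N passed the call (edgeR adjusted p = 0.0446), while those of H − N and L + N did not (adjusted p = 0.122 and 0.102). That library held the highest value of 5 of the 9 members (TNC, FN1, THBS1, THBS2 and ELN), where it held the highest value of 9.51% of all genes tested. Its smooth muscle sum was 6640.1 CPM, and the next highest was 2928 CPM. The part of muscle in these values was not tested.

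**Figure D4:**
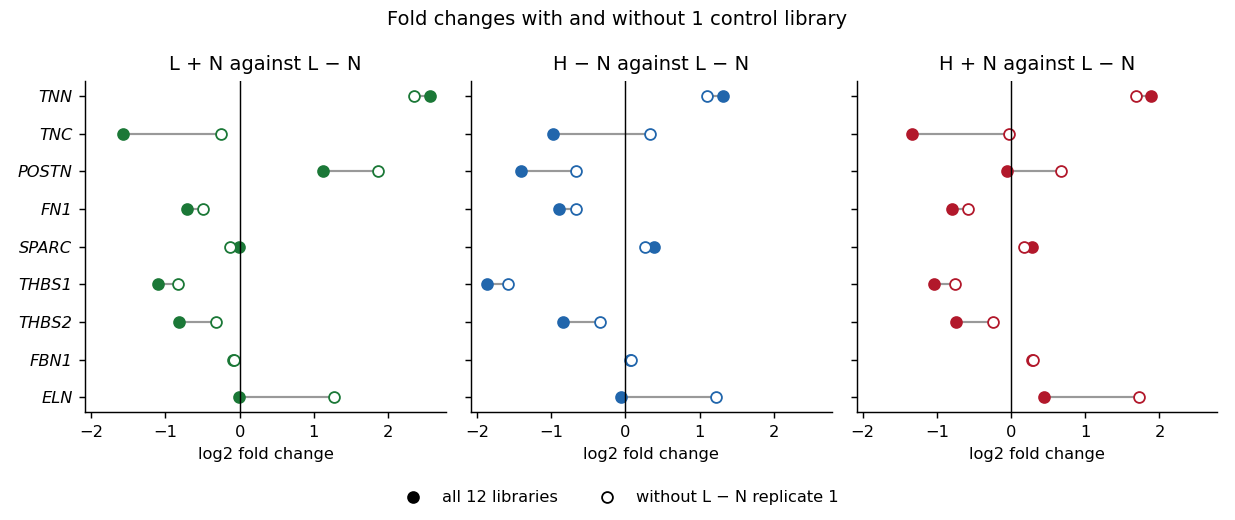
Log2 fold change (edgeR) of each gene against L − N in L + N, H − N and H + N with all 12 libraries (filled points) and without L − N replicate 1 (open points). The open points of TNC lie near 0 (−0.25, 0.33 and −0.03) and those of ELN above 1 (1.27, 1.22 and 1.73), while those of THBS1, FN1 and TNN keep their side of 0.

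The heat map sets each member beside the marker lists in the same library. L − N replicate 1 was high for TNC, THBS1, THBS2 and ELN and for the smooth muscle markers, and L − N replicates 2 and 3 for the macrophage markers. TNN was low in all of L − N and in H − N replicate 3.

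**Figure D5:**
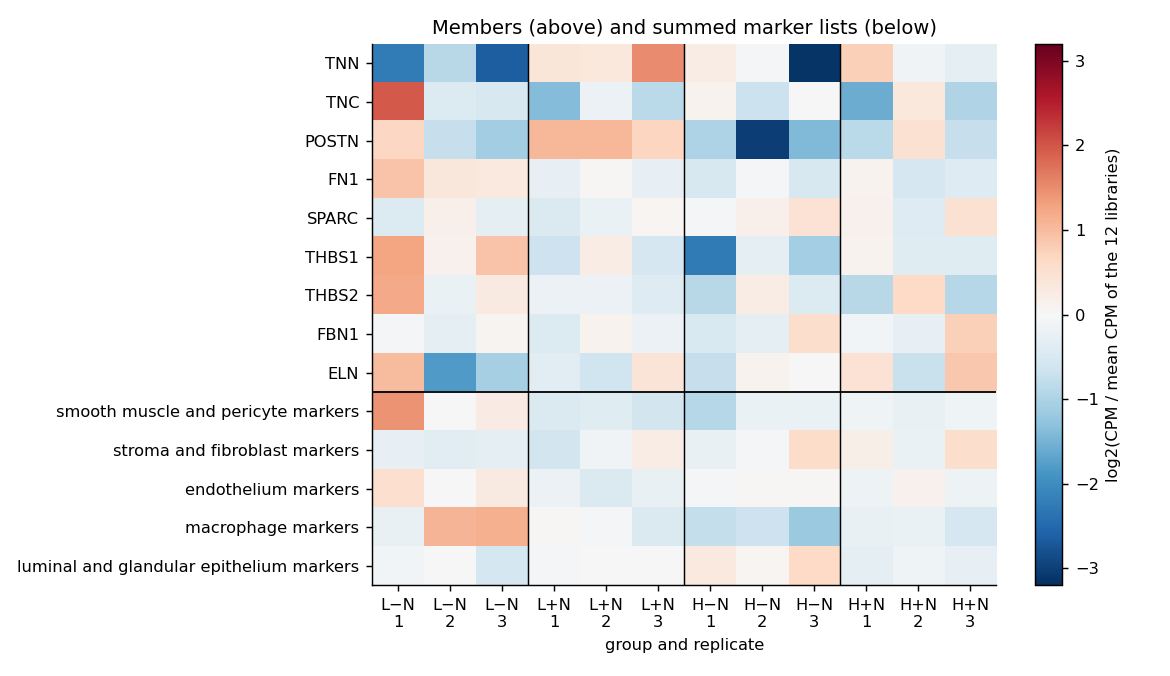
Log2 of CPM over the mean CPM of the 12 libraries, for the 9 genes (rows above the line) and the summed markers of 5 cell types (rows below it), in columns by group and replicate. The darkest cells are TNN in H − N replicate 3 (−3.14) and POSTN in H − N replicate 2 (−3.00), and the smooth muscle row reaches 1.45 in L − N replicate 1.

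Lists of genes related to the members were set beside them. Of the receptors of these glycoproteins (20 genes tested), the integrin subunits moved in both directions. ITGB8, the partner of ITGAV in an integrin that activates latent TGF-beta, was the member of the list with a call against L − N in all 3 diets in the upward direction. ITGB8 held 23.7, 24.2 and 21.6 CPM in L − N, 77.8, 114.6 and 81.3 in L + N, 31.1, 50.3 and 82.8 in H − N, and 66.2, 60.4 and 44.9 in H + N. It rose by 1.98 in L + N (SE 0.31, edgeR adjusted p = 0.0082), 1.24 in H − N (adjusted p = 0.0413) and 1.30 in H + N (adjusted p = 0.0302) on the log2 scale, and no library of L − N overlapped the other diets. The call in L + N was kept in 12 of 12 fits that left out 1 library, that in H − N in 2 and that in H + N in 7.

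ITGB3, which pairs with ITGAV in a receptor for fibronectin, thrombospondin and periostin, fell in the same 3 comparisons. It held 26.0, 69.0 and 45.3 CPM in L − N, 15.2, 19.8 and 19.0 in L + N, 7.46, 12.6 and 18.1 in H − N, and 12.4, 13.9 and 12.2 in H + N. The log2 fold changes were −1.38 (edgeR adjusted p = 0.0331), −1.88 (adjusted p = 0.0232) and −1.86 (adjusted p = 0.0193). STAB1, the stabilin 1 of macrophages that takes up SPARC, fell in H − N (log2 −1.43, edgeR adjusted p = 0.0162) and in H + N (log2 −1.11, adjusted p = 0.0187). ITGB5 fell in H − N (log2 −1.06, adjusted p = 0.0179). Over both fiber levels, ITGB8 and ITGA4 rose with NCG, by 1.02 and 1.24 (adjusted p = 0.0169 and 0.0368), calls that were kept in 7 and 5 of the 12 fits that left out 1 library. The median of the list was −0.40 in H − N, −0.36 in L + N and −0.29 in H + N, each against L − N, with 3, 1 and 2 genes called lower and 1 gene, ITGB8, called higher in each.

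Of 21 genes of elastic fibers and microfibrils, FBLN2 and MFAP2 fell in H − N against L − N. FBLN2, a fibulin that binds fibronectin and elastin, had a log2 fold change of −1.44 (SE 0.25, edgeR adjusted p = 0.0194) and MFAP2, a microfibril glycoprotein that binds fibrillin, one of −1.58 (SE 0.30, adjusted p = 0.0230). EMILIN1, a glycoprotein of the elastin and microfibril interface, rose in H + N against L − N by 1.47 (SE 0.36, adjusted p = 0.0344). Its CPM was 95.1, 71.4 and 69.2 in L − N and 177.4, 121.5 and 356.0 in H + N. In L + N against L − N, 0 genes of the list were called by edgeR, 5 had an unadjusted p under 0.05 and 0 were called by DESeq2. The median of the list was −0.32 in H − N, −0.13 in L + N and −0.14 in H + N, and without L − N replicate 1 it was 0.21, 0.33 and 0.28.

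Of 18 matricellular relatives of the members, MATN2, a matrilin that links matrix filaments, fell in H − N against L − N (log2 −1.26, SE 0.33, edgeR adjusted p = 0.0491). In L + N and in H + N against L − N, 0 genes of this list were called, 3 and 4 had an unadjusted p under 0.05, and DESeq2 called 1 in each. The list's median was −0.52 in H − N, −0.28 in L + N and −0.35 in H + N, and −0.19, −0.10 and −0.07 without L − N replicate 1.

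Of 9 glycoproteins of the basement membrane, NPNT (nephronectin, a ligand of the ITGA8 integrin) rose in H − N against L − N by 2.01 on the log2 scale (SE 0.46, edgeR adjusted p = 0.0349). SPOCK1, the proteoglycan testican 1, fell in H + N against L − N (log2 −2.80, SE 0.75, adjusted p = 0.0464). The libraries of SPOCK1 overlapped, at 2.101, 32.2 and 15.0 CPM in L − N and 2.18, 1.79 and 3.13 in H + N. In L + N against L − N, 0 genes of this list were called by edgeR or DESeq2, and 0 had an unadjusted p under 0.05. The median was 0.14 in H − N, 0.16 in L + N and 0.02 in H + N. The calls of MATN2, NPNT and SPOCK1 were kept in 3, 3 and 2 of the 12 fits that left out 1 library.

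Markers of the cells that make or carry these glycoproteins also differed against L − N. In the stroma list of 12 genes, 3 fell in H − N (VIM with a log2 fold change of −1.61, THY1 with −1.14 and MMP2 with −1.01) and 1 in H + N (VIM with −1.23). Other genes of that list pointed upward without passing, since the collagens COL1A1 and COL3A1 and the transcription factor HOXA11 had an unadjusted p under 0.05 and positive values in both H − N (log2 1.02, 0.998 and 0.98, edgeR adjusted p = 0.137, 0.0824 and 0.103) and H + N (log2 1.13, 0.92 and 1.10, adjusted p = 0.0886, 0.0811 and 0.0631), and DESeq2 called 2 genes of the list higher in H + N. The mean of COL1A1 was 4957 CPM in L − N, against 7515 with NCG alone (L + N), 10027 with fiber alone (H − N) and 10816 with both (H + N). Its libraries ran from 4742 to 5275 CPM in L − N and from 4864 to 11045 CPM in L + N, which overlapped. Those of H − N ran from 7314 to 14849 CPM and those of H + N from 6518 to 15821.5 CPM. In L + N, TAGLN and ACTA2 of the smooth muscle list fell (log2 −1.503 and −1.76), and so did PECAM1 of the 8 endothelial markers (log2 −1.09). Without L − N replicate 1, TAGLN was at −0.94 and ACTA2 had an edgeR adjusted p of 0.0585, so that neither was called, and PECAM1 was at −0.97. In the macrophage list, 1 marker fell in L + N (CD163, log2 −1.57) and 3 in H + N (log2 −1.71 for CD163, −1.35 for CSF1R and −1.06 for C1QC). The red cell markers summed to 753.2, 62.6 and 514.3 CPM in L − N, 26.5 to 81.9 in L + N, 31.8 to 55.3 in H − N and 28.1 to 293.0 in H + N. Of these, AHSP was called lower in L + N (log2 −5.26). AHSP held 1.66, 0.188 and 1.21 CPM in L − N and 0, 0 and 0.065 CPM in L + N. It had at most 26 counts in any library, so the size of this change rests on values near 0. Of 5 trophoblast markers tested, ELF5 was called higher in H + N against L − N (log2 1.59). Among the marker calls against L − N, those of ELF5 (4 of 12 fits that left out 1 library), THY1 and MMP2 in H − N (3 each), C1QC in H + N (2) and CD68 in H − N (1) were kept least often. The luminal and glandular epithelium and the T and NK cells, with 8 and 6 markers, had 0 called genes against L − N by edgeR, with 4, 1 and 0 and with 1, 0 and 0 markers at an unadjusted p under 0.05 in H − N, L + N and H + N. DESeq2 called 1 of these markers, a T and NK cell marker in H − N. How far these cell types account for the values of the members was not tested.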

How the data were processed

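The authors extracted RNA from endometrium with Trizol and made strand-specific poly(A) libraries that were sequenced in pairs on an Illumina platform. The submitters' processing notes name fastp 0.22.0, HISAT2 2.1.0, HTSeq 0.9.1 and the build Sscrofa11.1. The strand setting of the counting is not given in the sources used here. The authors deposited 1 table with read counts per gene, not normalized, and FPKM values, which they made from these counts and the gene length. Counts served for all tests and FPKM for levels per length. Groups were taken from the deposited titles, which code fiber (H or L) and NCG (with or without N).

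Tests were run with edgeR 4.0.16, on limma 3.58.1, and as an alternative with DESeq2 1.42.0 (R 4.3.3). Genes were filtered with filterByExpr (15351 of 20674 kept), scaled by TMM and fitted with 1 mean per group over 12 libraries (8 residual degrees of freedom, quasi-likelihood test). Fiber, NCG and interaction were contrasts of the 4 means. CPM used TMM factors, and log2 CPM a prior count of 2. An adjusted p under 0.05 with an absolute log2 fold change above 1 counted as a call, after the study's thresholds. The method was tested on simulated counts with changes planted in H + N. These held no outlying library, so that test does not bear on calls that rest on 1 library.

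Every member is named. Of each fixed list, genes called in any comparison are named, at most 4 per list and comparison by the smallest p, and the 3 genes most like TNN and THBS1 (mean of at least 1 CPM, with a symbol). Where more macrophage markers were called than are named, their number is given. COL1A1, COL3A1, HOXA11 and CD68 were named after their values were seen. The members and lists were chosen with earlier results of these data known. Alternatives were RLE scaling, no low-count filter, DESeq2, a replicate block, 2 groups alone and leaving out each library.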

Additional observations from a re-analysis of the deposited data

Results flagged for a closer look

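For THBS1, the estimated difference between the fiber levels in the value with NCG (the interaction) was 1.92 on the log2 scale (SE 0.63). It had an unadjusted p under 0.05 and did not pass after adjustment over all genes (edgeR adjusted p = 0.292). NCG went with a log2 difference of −1.10 on the low-fiber diet, where all 3 libraries of L + N lay below the mean of L − N (2304 CPM), and of 0.82 on the high-fiber diet, where all 3 of H + N lay above the mean of H − N (636.5 CPM). On both diets the libraries with and without NCG overlapped, and the value on the high-fiber diet ran from 0.45 to 1.36 when 1 library was left out. Of all genes tested, 12.8% had such an unadjusted p. For the interaction, leaving out 1 library at a time gave 1.55 (without H − N replicate 1) to 2.46 (without H − N replicate 2).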

How the results depend on the processing

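The number of members called in H − N against L − N was 1 with RLE size factors, with no low-count filter and with DESeq2, and 0 with the replicate block and with only these 2 groups. The number at an adjusted p under 0.05 was likewise 2 in the first 3 and 0 in the other 2. By that rule the first 3 gave 851 of 15351, 731 of 18404 and 2079 of 15868 genes. Leaving out 1 library gave 0 to 1 called and 0 to 2 at an adjusted p under 0.05. In L + N against L − N, DESeq2 called 1 member (TNN). It gave 2 an adjusted p under 0.05 (TNN and FN1), beside 2653 of 15868 genes. The 2 groups alone gave 1 by either rule (TNN), beside 1391 of 14999 genes at an adjusted p under 0.05. Leaving out 1 library gave 0 to 1 by either rule. In H + N against L − N, DESeq2 had 1 at an adjusted p under 0.05 (FN1), beside 2631 of 15868 genes. There, leaving out 1 library gave 0 to 1 by either rule. DESeq2 called 1 member for fiber (POSTN, with 3 at an adjusted p under 0.05, beside 1093 of 16225 genes). It called 2 for NCG (2 at an adjusted p under 0.05, beside 1993 of 15868 genes), where leaving out 1 library gave 0 to 1.

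Of 18 pairs of libraries with like replicate number, 3 had a correlation of deviations from the group means over 0.1 (range −0.32 to 0.28). Pairs of unlike number were not set beside them, so these values cannot tell whether replicate numbers pair the libraries. With the replicate block the adjusted p in H − N against L − N was 0.0689 for THBS1 (log2 −1.95) and 0.0661 for FN1 (log2 −0.88), and the sign turned for ELN in H − N (0.28) and L + N (0.17) and for POSTN in H + N (0.10), each against L − N. It moved the number of genes called in H − N against L − N from 446 to 254. Leaving out 1 library turned the sign of TNC (−1.36 to 0.33) and ELN (−0.49 to 1.22) in H − N against L − N, ELN (−0.44 to 1.27) and FBN1 (−0.24 to 0.05) in L + N against L − N, POSTN in H + N against L − N (−0.64 to 0.67), SPARC in H + N against H − N (−0.33 to 0.11) and FBN1 in H + N against L + N (−0.02 to 0.52). The cause was not tested.

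The background moved as well. DESeq2 called 938 genes in H − N, 898 in L + N and 1000 in H + N against L − N, where edgeR called 446, 613 and 549, and 306, 26, 2 and 186 where edgeR called 4, 0, 0 and 0 (fiber, H + N against H − N, H + N against L + N, interaction). The fits of 2 groups called 3, 537 and 87 genes in the first 3 comparisons. Leaving out 1 library gave 0 to 1120 in H − N, 143 to 911 in L + N and 1 to 948 in H + N, with the highest number each time where L − N replicate 1 was left out, and the lowest where H − N replicate 1, L − N replicate 3 and H + N replicate 1 were.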
